A study of Mus musculus with 6 samples.

Results

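The 8 genes that mark macrophages, Mrc1, Itgam, Lyz2, Csf1r, Cd68, Ptprc, Tyrobp and Cd14, are described here in cultures of primary mouse chondrocytes, the cells of cartilage. They were taken by symbol from the deposited expression table, and all 8 have a row among its 10189 genes. RNA-seq of total RNA compared 3 libraries from C57BL/6 mice without the microRNA gene Mir34a in any cell (genotype MiR-34a -/-, written KO) with 3 from wild-type C57BL/6 mice. All mice were 5 weeks old, and the labels give the model name Mir34atm1.2 Mrl for both genotypes. Articular cartilage of knee and hip was digested in collagenase, filtered and plated, and no sorting step is described. The cells were untreated and were grown to confluence in medium with 10% serum. Because the deletion is global, any macrophage in a KO culture would lack the microRNA too. The sources used here do not say whether libraries of a genotype came from separate animals, so each p-value reflects no more than the spread among these libraries, which may be technical.

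Macrophages are phagocytes that live in most tissues, joints included, and can be carried along when tissue is digested and plated. Their survival depends on signals through the receptor encoded by Csf1r, and their identity on the transcription factor encoded by Spi1. Cartilage itself normally holds no blood vessels and few immune cells. The 8 genes cover surface receptors (Csf1r, Mrc1, Cd14), adhesion and leukocyte surface proteins (Itgam, Ptprc), a signalling adaptor (Tyrobp) and lysosomal or secreted proteins (Cd68, Lyz2).

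Sequences bearing on these genes are the deleted microRNA and the sites where the Spi1 product could bind. The mature strand miR-34a-5p lies at chr4:150068473-150068494 (plus strand, GRCm38.p6, sequence from RefSeq) and is shown with its seed, bases 2 to 8, in capitals.
miR-34a-5p: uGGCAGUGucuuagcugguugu
The longest 3′ UTR of each gene was searched for a seed match. Of the 8 genes, 1 had it, Csf1r, with 1 match in 1669 bases, against 19.3% of 9349 genes with a row. RefSeq promoter windows, from 250 bases before to 50 after a start, were given for 5 of the 8 genes (Ptprc, Mrc1, Itgam, Lyz2 and Cd68). They were searched on both strands for GAGGAA and AGGAAGT, cores of the purine-rich motif of the Spi1 product. The motifs were chosen with the windows in view, and they overlap where GAGGAA is followed by GT. GAGGAA was found for 4 of the 5 genes, against 28.3% of all 32851 windows, and AGGAAGT for 3 of the 5, against 9.35%. Each of the 5 had at least 1 of them, against 32.7% of windows, and Ptprc has more than 1 window. The lines show 30 bases around a match, read on the strand that carries it, with the motif in capitals (GRCm38.p6). They are chr10:117282354-117282383 plus for Lyz2, chr2:14229192-14229221 minus for Mrc1, chr1:138175400-138175429 minus for Ptprc, chr7:128062544-128062573 plus for Itgam and chr11:69666378-69666407 minus for Cd68.
Lyz2: tgtgtgcaaaacAGGAAGTtcctaccgatc
Mrc1: aggagaaaacgcAGGAAGTggggagaagtg
Ptprc: tacttgaattaAGGAAGTaagaagccattg
Itgam: tgttttctcccgGAGGAAggctacagaggg
Cd68: tttcttaccaatGAGGAAagggcttcccat
A match describes the letters of the window and does not show binding.

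The libraries held 989217 to 5266617 reads in the table, and 947081 to 1772185 without Rn45s, Lars2 and Mir6236, which took most reads of wild type 1 (59.1% on Rn45s, a ribosomal RNA precursor, alone). Behind the values of the 8 genes stand 36 reads (Tyrobp in KO 1) to 24829 reads (Lyz2 in KO 2), and some values of other genes rest on fewer, such as 7 reads for Ptk2b in KO 1. Values are CPM, read counts scaled to library size by the authors with TMM, and log2 fold changes are KO minus wild type on log2(CPM + 0.5), tested with limma over all 10189 genes. Mir34a itself has no row, so the deletion was not checked here. Col2a1, the main cartilage collagen gene, had 1266, 1094 and 801 CPM in wild type and 1985, 1159 and 1361 CPM in KO. The chondrocyte gene Sox9 was low, with 14.5, 8.38 and 11.7 CPM in wild type and 24.8, 15.2 and 15.3 CPM in KO. The fibroblast gene Col3a1 had 4063, 2785 and 4346 CPM in wild type and 1981, 1573 and 2277 CPM in KO. The purity of the cultures was not tested. Of 18 chondrocyte genes, 17 had a row.

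The summed level of the 8 genes was much the same in the wild-type libraries, while the KO libraries differed widely from one another. Summed over the 8 genes, wild type 1, 2 and 3 had 5564, 4941 and 4774 CPM, and KO 1, 2 and 3 had 903, 14174 and 2877 CPM. Lyz2 made up 61.1% to 85.8% of these sums. Without it the sums were 1425, 1614 and 1126 CPM in wild type and 309, 2009 and 1119 CPM in KO. KO 1 was thus the lowest and KO 2 the highest library with or without Lyz2. In bulk RNA, fewer macrophages and less of these transcripts per macrophage cannot be told apart.

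**Figure D1:**
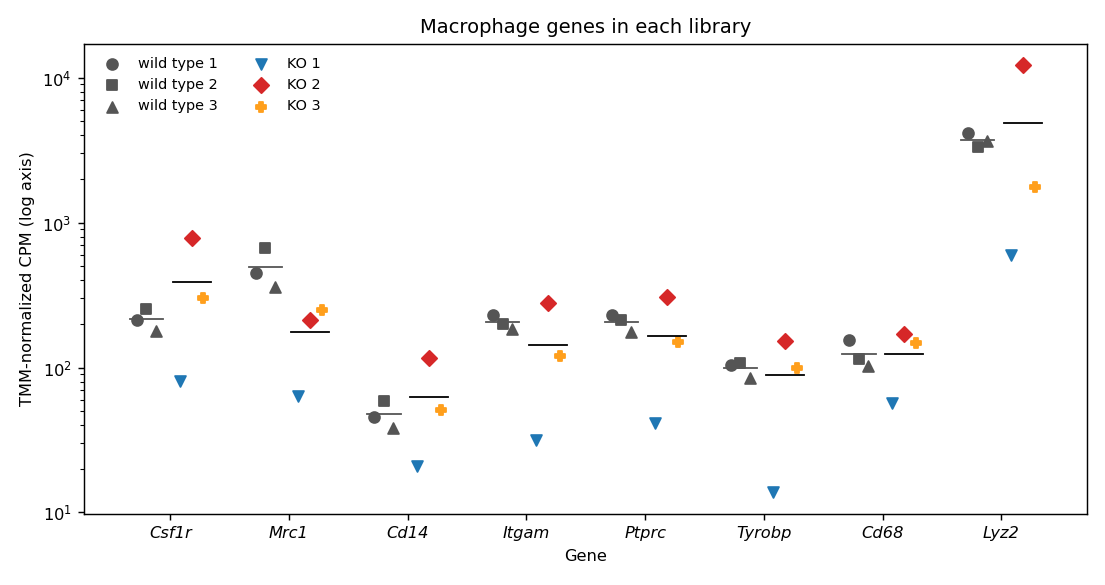
TMM-normalized CPM of the 8 genes on a log axis, 1 symbol per library, with a line at the mean of the 3 libraries of each genotype. KO 1 is the lowest library for each gene, and KO 2 is the highest for each gene but Mrc1.

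Csf1r encodes the receptor for the growth factors CSF1 and IL-34. It had 211, 254 and 179 CPM in wild type 1 to 3 and 80.9, 779 and 302 CPM in KO 1 to 3. KO 1 lay below, and KO 2 and KO 3 above, each wild-type library. The wild-type mean was 215 ± 37.3 CPM and the KO mean 387 ± 357 CPM (SD, n = 3 each). The log2 fold change was 0.33 (limma adjusted p = 0.864, SE 0.65). It was 1.19 without KO 1 and −0.44 without KO 2. Csf1r lies on chromosome 18 at 61100598 to 61132149 (mm10), and it shares 873 of its 5774 exon bases with Hmgxb3 on the opposite strand. No source used here says whether counting used strand, so reads of these 2 genes may be mixed. Hmgxb3 had 67.9, 118 and 106 CPM in wild type and 37.0, 126 and 99.7 CPM in KO. The other 7 genes share no exon base with a gene on the opposite strand.

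Mrc1 encodes the mannose receptor of tissue macrophages. It had 447, 670 and 361 CPM in wild type and 63.7, 212 and 250 CPM in KO, so that each KO library lay below each wild-type library. The means were 493 ± 159 and 175 ± 98.2 CPM (SD, n = 3 each), and the log2 fold change was −1.66 (limma adjusted p = 0.283, SE 0.47). Of the 8 genes it was the only gene without overlap between genotypes, where 9.57% of all genes were that low in KO, and the only gene lower at an unadjusted limma p below 0.05, where 6.4% of all genes were. The recovered reads gave an adjusted p of 0.0236 with DESeq2, which called 2.66% of the genes it adjusted, and of 0.325 with edgeR, which called 0.0196% of genes. Over all alternatives the adjusted p of Mrc1 ran from 0.0236 to 0.617, and its log2 fold change from −2.03 to −1.05. Mrc1 was also the only gene of the 8 that KO 2 did not lead. It lies on chromosome 2 at 14229392 to 14332057.

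Cd14 encodes the coreceptor that hands bacterial lipopolysaccharide to TLR4. It had 45.9, 58.7 and 38.1 CPM in wild type and 21.0, 116 and 50.8 CPM in KO, and KO 3 lay within the wild-type range. The log2 fold change was 0.09 (limma adjusted p = 0.958, SE 0.52). Without KO 1 it was 0.71 and without KO 2 −0.51.

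Itgam encodes the integrin alpha chain CD11b. It had 232, 198 and 184 CPM in wild type and 31.7, 277 and 120 CPM in KO. KO 1 and KO 3 lay below the wild-type range and KO 2 above it. The log2 fold change was −0.99 (limma adjusted p = 0.564, SE 0.62), −0.16 without KO 1 and −1.71 without KO 2. On its own strand, 3450 of its 5024 exon bases are shared with the predicted gene Gm49368, whose reads could be split from those of Itgam. Ptprc encodes CD45, a phosphatase on the surface of all leukocytes. Its values were 230, 213 and 176 CPM in wild type and 41.2, 305 and 150 CPM in KO, in the same order of KO libraries as Itgam. Its log2 fold change was −0.72 (limma adjusted p = 0.640, SE 0.58), 0.065 without KO 1 and −1.37 without KO 2.

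Tyrobp encodes DAP12, the adaptor through which receptors such as TREM2 signal to the kinase SYK. It had 104, 107 and 85.0 CPM in wild type and 13.7, 151 and 99.7 CPM in KO. KO 3 lay within the wild-type range, KO 1 was 6.19-fold below its lowest library and KO 2 was 1.41-fold above its highest. The log2 fold change was −0.72 (limma adjusted p = 0.712, SE 0.72), and 0.32 without KO 1.

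Lyz2 encodes lysozyme M, which cleaves bacterial cell walls. It had 4139, 3326 and 3648 CPM in wild type and 594, 12165 and 1757 CPM in KO. The wild-type libraries differed by 1.24-fold and the KO libraries by 20.5-fold. The log2 fold change was −0.66 (limma adjusted p = 0.782, SE 0.86), 0.33 without KO 1 and −1.85 without KO 2. On recovered reads it was positive, 0.39 with edgeR and 0.40 with DESeq2. Lyz2 has a close copy, Lyz1, next to it on chromosome 10. Lyz1 had 2.12% to 2.87% of the CPM of Lyz2 in each of the 6 libraries, and its reads are uncertain. Cd68 encodes macrosialin, a glycoprotein of lysosomes. It had 155, 114 and 103 CPM in wild type and 56.9, 169 and 147 CPM in KO, the narrowest KO range of the 8 genes (2.97-fold). Its log2 fold change was −0.12 (limma adjusted p = 0.919, SE 0.38), 0.37 without KO 1 and 0.017 with DESeq2.

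Against these ranges the comparison of genotype means called 0 of the 8 genes with limma, where 0.00981% of all genes were called. At an unadjusted limma p below 0.05, 1 was lower and 0 were higher, where 6.4% and 4.64% of all genes were. EdgeR called 0, where it called 0.0196% of all genes. DESeq2 called 1, where it called 2.66% of the genes it adjusted. Of the 8, 6 had lower means in KO on the log scale, where 48.6% of all genes did. Their median log2 fold change was −0.69, against 0.016 over all genes. On recovered reads, 4 of 8 were lower with edgeR (47.6% of all genes) and 4 with DESeq2 (46.4%), in both cases Mrc1, Itgam, Ptprc and Tyrobp. Without KO 1, 2 of 8 had lower means (Mrc1 and Itgam), where 47.6% of all genes did. In that fit 1 was higher before adjustment at p below 0.05, Csf1r, where 3.32% of all genes were. Without KO 2, 4 were lower at that threshold (Mrc1, Itgam, Lyz2 and Ptprc), where 7.8% of all genes were. In both fits limma called 0 of the 8 after adjustment.

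The KO libraries were more widely spread than the wild-type libraries for each of the 8 genes. The SD of log2(CPM + 0.5) over the KO libraries ran from 0.85 for Cd68 to 2.21 for Lyz2, with a median of 1.51, and over the wild-type libraries from 0.16 for Lyz2 to 0.45 for Mrc1, with a median of 0.22. Over all genes the medians were 0.39 in KO and 0.34 in wild type. In KO, 7 of the 8 genes had an SD above 1, which 10% of all genes had, and 4.7% of the 2997 genes with a mean of at least 50 CPM. In wild type 0 of the 8 did, where 9.23% of all genes did. With a KO library left out, the number of the 8 with a KO SD above 1 was 1 without KO 1 (Lyz2), 6 without KO 2 and 8 without KO 3. Each of these SDs rests on the KO libraries left, and no share over all genes was taken for them. The difference in spread was not tested, since 3 libraries a genotype give little hold on a variance. The counts of the 8 genes are descriptions, as these genes share libraries and were chosen with earlier results known.

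**Figure D2:**
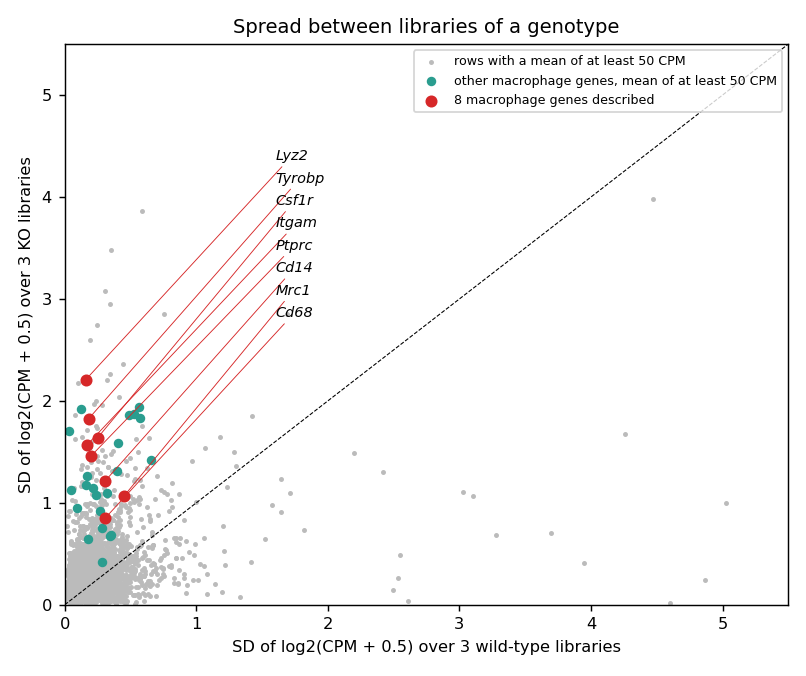
SD of log2(CPM + 0.5) over the 3 wild-type libraries (x axis) and the 3 KO libraries (y axis) for genes with a mean of at least 50 CPM (grey), other macrophage genes at that level (green) and the 8 genes (red, named). The dashed line marks equal spread, and the 8 genes lie above it, with wild-type SDs of 0.16 to 0.45.

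Most of the genes shared 1 order of KO libraries. KO 1 was the lowest of the 6 libraries for 8 of 8 genes, where it was the lowest for 19.1% of all genes. KO 2 was the highest for 7 of 8, where it was the highest for 20% of all genes. The order KO 2 above KO 3 above KO 1 held for 7 of 8, against 18.5% of all genes. Mrc1 was the exception, with KO 3 above KO 2. The 8 genes share the 6 libraries and were chosen with earlier results of these data known, so these counts are descriptions.

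Most other macrophage genes had that order too. From a list of 46, chosen like all lists here with earlier results of these data known, 41 had a row, and 31 of them had the order KO 2, KO 3, KO 1. KO 1 was the lowest library for 32 of the 41 and KO 2 the highest for 24. Summed over the 41, wild type 1 to 3 had 5319, 5753 and 4456 CPM and KO 1 to 3 had 1771, 7362 and 4595 CPM. By these sums KO 3 lay within the wild-type range. Against the wild-type mean, the list's median was −1.93 on the log2 scale in KO 1, 0.55 in KO 2 and −0.37 in KO 3, and that of the 8 genes −2.47, 0.60 and −0.21. Spi1 had 31.4, 50.3 and 25.8 CPM in wild type and 6.87, 59.8 and 36.1 CPM in KO. Ctss, which encodes the lysosomal protease cathepsin S, had 413, 433 and 419 CPM in wild type and 93.5, 986 and 348 CPM in KO. The complement gene C1qc had 156, 225 and 101 CPM in wild type and 21.4, 236 and 156 CPM in KO, with the same order of KO libraries.

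Not every gene of that list had the order KO 2, KO 3, KO 1. F13a1, which encodes a chain of coagulation factor XIII found in tissue macrophages, had 84.3, 279 and 64.2 CPM in KO 1 to 3 and 212 to 228 CPM in wild type, so that KO 3 was its lowest library. Gpnmb, which encodes a lysosomal glycoprotein, had that order, but its KO 1 value lay within the wild-type range, with 562, 360 and 391 CPM in wild type and 368, 834 and 827 CPM in KO. Of the 41 genes, 34 had lower means in KO, where 48.6% of all genes did. At an unadjusted limma p below 0.05, 5 were lower (Fcgr2b, Ms4a7, Itgb2, Pf4 and Stab1) and 0 higher. Over all genes 6.4% were lower and 4.64% higher at that p. Limma, edgeR and DESeq2 called 0 of the 41, where they called 0.00981%, 0.0196% and 2.66% of the genes they adjusted. The median log2 fold change was −0.58. Stab1, a scavenger receptor gene of tissue macrophages, had 402, 593 and 463 CPM in wild type and 216, 343 and 370 CPM in KO, without overlap, and like Mrc1 it had KO 3 above KO 2. All KO libraries lay below all wild-type libraries for 3 of the 41 genes, as for 9.57% of all genes. Pf4 had 27.0, 40.4 and 16.4 CPM in wild type and 0, 12.2 and 4.28 CPM in KO.

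**Figure D3:**
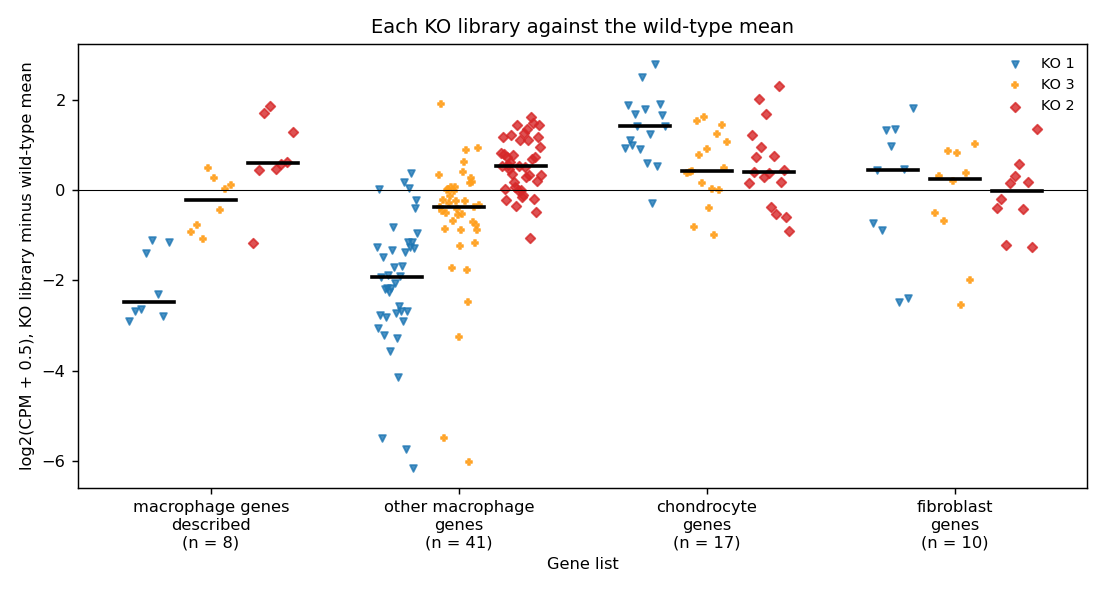
log2(CPM + 0.5) of each gene in KO 1, KO 3 and KO 2 minus its mean over the 3 wild-type libraries, for 4 gene lists, with a bar at the median. For the 8 genes the medians are −2.47, −0.21 and 0.60, and for chondrocyte genes 1.42, 0.43 and 0.42.

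Chondrocyte genes were at their highest sum in KO 1. The 17 genes summed to 7734 CPM there, against 4130 and 4606 CPM in KO 2 and KO 3 and 2697 to 4097 CPM in wild type. Their median against the wild-type mean was 1.42 in KO 1, 0.42 in KO 2 and 0.43 in KO 3. Of the 17, 15 had higher means in KO, where 51.4% of all genes did, and 7 had higher values at a limma p below 0.05 before adjustment, where 4.64% of all genes were. Limma and edgeR called 0 of the 17 and DESeq2 3, where DESeq2 called 2.66% of the genes it adjusted. The 10 fibroblast genes summed to 8388 to 11453 CPM in KO and 8854 to 11362 CPM in wild type, with members on both sides. At an unadjusted limma p below 0.05, 4 were lower (Fbn1, Postn, Col3a1 and Col1a1) and 1 higher (Lum). Over all genes 6.4% were lower and 4.64% higher at that p. Of the 10 fibroblast genes limma and edgeR called 0, and DESeq2 called 3, against its 2.66% of genes. The part of the culture's make-up in the macrophage values was not tested.

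Markers of other blood cells were few. Of 13 neutrophil genes 4 had a row: S100a8 and S100a9 were at 0 in all KO libraries, KO 2 included, and had 17.0 to 25.9 and 36.9 to 51.5 CPM in wild type. A count of 0 allows up to 1.14 to 1.84 CPM in a KO library (3 reads, counting error only). Mmp8 had 15.1 to 22.3 CPM in wild type and 3.05 to 5.51 CPM in KO. None of these 3 was higher in KO 2 than in wild type. Of the 4 neutrophil genes, limma and DESeq2 called 0 and edgeR 1, where edgeR called 0.0196% of all genes. All KO libraries lay below all wild-type libraries for 3 of the 4, as for 9.57% of all genes. Lcn2, which encodes lipocalin-2, had 315, 101 and 113 CPM in wild type and 214, 91.6 and 71.0 CPM in KO, and KO 2 lay below the wild-type range. Of 13 lymphocyte genes 1 had a row (Cd247, 344 to 458 CPM in wild type and 211 to 272 CPM in KO), with none for the T cell receptor genes Cd3d, Cd3e and Cd3g. Of 7 mast cell genes 0 had a row, and of 11 osteoclast genes 3 did, Ctsk, Tnfrsf11a and Atp6v0d2. Acp5 and Mmp9 of osteoclasts had none. Of 10 genes of dendritic cells and MHC class II, 4 had a row, at 0 to 38.7 CPM. Of 8 endothelial genes 3 had a row (Erg, Pecam1 and Cdh5), and they summed to 23.9 to 39.9 CPM in wild type and 14.1, 56.8 and 18.4 CPM in KO, highest in KO 2. Ctsk, which encodes the collagen-degrading cathepsin K, had 54.0, 28.2 and 42.2 CPM in wild type and 55.0, 29.4 and 42.8 CPM in KO, and KO 2 had the least of the KO libraries. Atp6v0d2, which encodes a subunit of the vacuolar proton pump, had 13.2, 8.38 and 5.86 CPM in wild type and 1.91, 19.1 and 14.7 CPM in KO, lowest in KO 1 and highest in KO 2 as most of the 8 genes were.

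Known partners of the 8 proteins include ligands, coreceptors and signalling proteins. Of 22 listed partners 18 had a row, of which 11 had lower and 7 higher means in KO. Over all genes 48.6% had lower and 51.4% higher means. Itgb2, Trem2, Fcer1g, Spi1 and Irf8 are also on the list of other macrophage genes, so the counts of these lists overlap. Limma called 0 of the partners, where it called 0.00981% of all genes. At an unadjusted limma p below 0.05, 1 was lower (Itgb2) and 3 were higher (Csf1, Icam1 and Cx3cl1). Over all genes 6.4% were lower and 4.64% higher at that p. Itgb2 encodes the beta chain that pairs with the product of Itgam. It had 109, 92.2 and 86.2 CPM in wild type and 15.6, 89.2 and 51.4 CPM in KO, with a log2 fold change of −1.18 (limma adjusted p = 0.447, SE 0.52). Trem2 had 54.7, 44.9 and 47.5 CPM in wild type and 7.25, 70.6 and 64.8 CPM in KO, and Syk had 54.7, 51.8 and 38.7 CPM and 10.7, 86.7 and 36.7 CPM. These 2 genes of the Tyrobp pathway were lowest in KO 1 and highest in KO 2.

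Csf1, the ligand gene, did not share that order. It had 104, 107 and 109 CPM in wild type and 190, 120 and 150 CPM in KO, with the most in KO 1. Each KO library lay above each wild-type library, as for 899 of all 10189 genes. A relation to the Csf1r values was not tested. The log2 fold change of Csf1 was 0.50 (limma adjusted p = 0.432, SE 0.21). Il34, which encodes the other ligand, had 7.04 to 16.8 CPM in wild type and 3.92 to 11.0 CPM in KO. Tlr4, which encodes the receptor that CD14 serves, had 71.6, 44.9 and 76.2 CPM in wild type and 117, 103 and 71.6 CPM in KO.

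The genes most like the 8 were sought among 8688 others with a mean of at least 10 CPM, by Pearson's r over the 6 libraries with the mean of the 8 log2 values. The closest 6 were Arrb2 (r = 0.998), Syk (0.997), Ptk2b (0.994), Gab2 (0.994), Mpeg1 (0.994) and Apobr (0.990). The points are 6 libraries shared by all genes, so r is a description. Mpeg1, which encodes the pore-forming protein perforin-2 of phagocytes, had 242, 261 and 220 CPM in wild type and 36.3, 520 and 163 CPM in KO. Ptk2b had 28.1 to 32.8 CPM in wild type and 2.67, 63.7 and 23.9 CPM in KO. Among the 8, r with the mean of the other 7 was highest for Ptprc (0.994) and lowest for Mrc1 (0.677).

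Levels between genes are compared per kilobase of exon (GENCODE M21). In wild type the order was Lyz2 (2815 ± 311 CPM per kb, SD, n = 3), Tyrobp (148 ± 18.0), Cd68 (98.7 ± 22.0), Mrc1 (77.3 ± 25.02), Itgam (40.7 ± 4.88), Csf1r (37.2 ± 6.46), Cd14 (27.5 ± 5.99) and Ptprc (11.3 ± 1.51). The ranges of Cd68 and Mrc1, of Itgam and Csf1r, and of Csf1r and Cd14 overlapped, while those of the other neighbours did not. The 18313 exon bases of Ptprc include retained introns, so its level per kb is understated. In KO 2, Csf1r reached 135 CPM per kb, the level of Cd68 (134), and Mrc1, at 33.2 CPM per kb, was below Itgam (55.2). In KO 1, Cd68 had 45.2 CPM per kb, above Tyrobp (20.6) and Csf1r (14.01).

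Ratios of these genes within a library do not depend on its scaling. In wild type the ratio of Csf1r to Ptprc was 0.918, 1.19 and 1.02, and in KO it was 1.96, 2.55 and 2.00, higher in each KO library although KO 1 and KO 2 differed 9.63-fold in Csf1r itself. The ratio of Mrc1 to Csf1r was 2.12, 2.64 and 2.01 in wild type and 0.788, 0.272 and 0.828 in KO. Mrc1 to Ptprc was 1.95, 3.15 and 2.05 in wild type and 1.55, 0.693 and 1.66 in KO. Cd14 to Ptprc was 0.199, 0.276 and 0.217 in wild type and 0.509, 0.379 and 0.337 in KO. Itgam to Ptprc differed less, with 1.01, 0.932 and 1.05 in wild type and 0.769, 0.909 and 0.797 in KO, and it too did not overlap. Ptprc marks all leukocytes, not macrophages alone. Of 4 neutrophil genes, 3 were lower in each KO library than in each wild-type library (S100a8, S100a9 and Mmp8), as were 9.57% of all genes. Lcn2 overlapped. The part of the mix of leukocytes in these ratios was not tested.

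**Figure D4:**
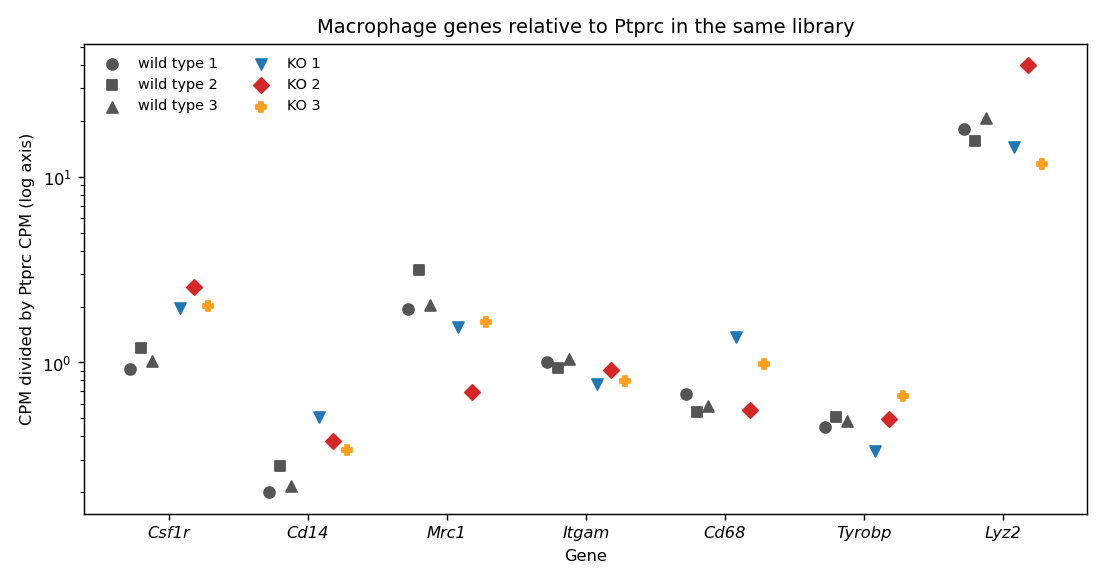
CPM of 7 genes divided by the CPM of Ptprc in the same library, on a log axis, 1 symbol per library. Csf1r and Cd14 lie higher, and Mrc1 and Itgam lower, in each KO library than in each wild-type library, while Cd68, Tyrobp and Lyz2 overlap.

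Of the 28 pairs of the 8 genes, 10 had ratios that did not overlap between genotypes (35.7%), against 17.2% of all pairs of genes with reads in each library and 21.5% of 666 pairs among the other macrophage genes. Pairs share genes and libraries, so these shares are descriptions, and the smallest two-sided p of an exact permutation test of 3 against 3 is 0.1. Without KO 2, 16 pairs did not overlap. With fewer libraries non-overlap comes more easily, and no share over all pairs was taken for that set. The 16 is therefore not to be set against the 10. Each gene is in 7 pairs. Of these, 4 were among the 10 for Csf1r, for Mrc1 and for Ptprc itself, 3 for Itgam and for Cd14, and 1 for Cd68 and for Tyrobp. Lyz2 was in none, but it departed in KO 2: its ratio to Ptprc was 39.9 there, against 15.6 to 20.7 in wild type and 14.4 and 11.7 in KO 1 and KO 3. Relative to Ptprc, 37 other macrophage genes with reads in each library could be compared, of which 4 were higher in each KO library (Cd53, Folr2, Cd300a and Gpnmb), 3 lower (Ms4a7, Ms4a6c and Itgb2) and 30 overlapped. The same share over all genes relative to Ptprc was not taken, so these counts are not read as a trait of the genes named. Genes for ratios and pairs were singled out after their values were seen.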

How the data were processed

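The signal in the deposited table is CPM of a filtered gene set, which the authors normalized with TMM, per its name. Per the submitters' processing notes, bcl2fastq, cutadapt 1.18, HISAT2 2.1.0, StringTie 1.3.5, edgeR and the build mm10 were used, with no roles given. Libraries were stranded total RNA, read for 75 cycles from each end, per the labels' protocols. Each library's values were whole multiples of 1 step for 100% of genes (to within 0.001 of a read), which gave back the read counts. The values of wild type 1 summed to 3308700, so the signal is not plain CPM, which the planned design had assumed. The log-scale test was kept. The name of 1 of 6 columns differs from its sample's title by 1 character, and 0 value columns were unmapped.

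The 3 KO and 3 wild-type libraries were compared over all 10189 genes with limma 3.58.1 (R 4.3.3) with intensity trend on log2(CPM + 0.5), two-sided, Benjamini-Hochberg adjusted, called below 0.05. Recovered reads were tested with edgeR 4.0.16 (quasi-likelihood, the authors' effective library sizes) and DESeq2 1.42.0. Limma and edgeR were tested on simulated data with the same dispersion for all genes. Their behaviour at the spread of the 8 members over the KO libraries was not tested. Members and lists were chosen with earlier results of these data known. Named genes were the 8 members, genes of the lists of macrophage genes and partners, the most abundant genes of other lists, and the 6 genes of highest correlation. S100a8, Fbn1, Postn, Col1a1, Lum, Sox9, Hmgxb3 and Lyz1 were also named after their values were seen. Alternatives were 2 other pseudocounts (0.1 and 2 CPM), a mean of at least 20 CPM, limma without trend, 2 other scalings, a block on replicate number and leaving out each library. Chi-square per degree of freedom between libraries of a genotype was 5.83 to 27.8, so no 2 agreed within sampling noise. Python 3.11.15 served for other steps.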

Additional observations from a re-analysis of the deposited data

How the results depend on the processing

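Leaving out each library in turn, limma called 0 to 7 genes of the table higher and 0 to 25 lower, 0 of the 8 genes, 1 to 4 of the 8 lower at an unadjusted p below 0.05, and 2 to 8 with lower means. With a KO library left out, 1 to 8 had a KO SD above 1. Of the 28 pairs, 10 to 16 did not overlap, an alternative chosen after seeing the data, and a pseudocount of 0.5 CPM, also added then, left 10. Fewer libraries make non-overlap easier, and no share over all pairs was taken with a library left out. Over the whole table the calls higher and lower were 0 and 1 as reported, 0 and 2 with a pseudocount of 2 CPM or edgeR, 7 and 3 without trend, and 27 and 81 with DESeq2, which also called 1 of the 8 (Mrc1). With the replicate block 0 and 0 were called. Same-numbered libraries did not deviate together (r = 0.0176, 0.0651 and −0.0555), so the numbers were not taken as pairs.

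Log2 fold changes turned sign for 6 of the 8 genes. Over the leave-one-out fits they ran from −1.85 to 0.33 for Lyz2, −0.44 to 1.19 for Csf1r, −0.41 to 0.37 for Cd68, −1.37 to 0.065 for Ptprc, −1.39 to 0.32 for Tyrobp and −0.51 to 0.71 for Cd14. The highest of each came without KO 1 and the lowest without KO 2. On recovered reads, Lyz2 was 0.39 and Cd68 5.75e-04 with edgeR, and 0.40 and 0.017 with DESeq2. Mrc1 and Itgam kept their sign in each of 15 alternatives. The cause of these differences was not tested. At these depths the 36 reads of Tyrobp in KO 1 were the least behind any value of the 8.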
